A study of Canis lupus familiaris with 25 samples.

Results

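The simple epithelial keratins are taken here as KRT7, KRT8, KRT18 and KRT19, chosen by row name with earlier results of these data known, and they make up 4 of the 24532 genes in the count table and 4 of its 49 rows named KRT and a number. Their transcripts were counted by QuantSeq 3′, which sequences 1 fragment near the poly(A) tail of each transcript, in 25 archival formalin-fixed and paraffin-embedded (FFPE) dog tumor samples. These were 10 hepatoid gland adenomas (HGA), 11 primary apocrine gland anal sac adenocarcinomas (AGASAC) and 4 sublumbar lymph node metastases that belong to the dogs with primary tumors 1 to 4. All were surgical specimens of pet dogs with no experimental treatment, cut as whole cross sections after tissue next to the tumor had been removed, so each sample holds stroma as well as tumor cells. HGA came from 6 intact and 4 neutered dogs aged 8 to 14 years. Primary AGASAC came from 2 intact and 9 neutered dogs aged 8 to 12.5 years, and the metastases from 1 intact and 3 neutered dogs aged 8 to 10 years. Tumor type is therefore partly confounded with neuter status and age. It is also partly confounded with the series of sequencing file names. Of these tumors, 1 series holds 9 HGA and 3 primary AGASAC, and another holds 7 primary AGASAC and HGA 10. The series of primary tumor 4 is not given in the sources used here.

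Keratins are the intermediate filament proteins of epithelial cells. A filament is built from pairs of 1 acidic type I keratin and 1 basic type II keratin, so the balance between both types matters to a cell. KRT18 and KRT19 are type I keratins, and KRT7 and KRT8 are type II keratins. KRT8 and KRT18 form the basic pair of single-layered and glandular epithelium, while KRT7 and KRT19 are typical of ducts and many glands. Stratified epithelium, including the basal layer of skin and of its sebaceous glands, relies instead on the pair KRT5 and KRT14. The hepatoid glands around the anus of dogs are modified sebaceous glands, and the gland of the anal sac wall is apocrine. In the dog gene annotation used for names, KRT8 and KRT18 are neighboring protein-coding genes at the end of the type II keratin cluster, KRT7 lies in the same cluster, and KRT19 lies in the type I cluster on another chromosome.

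KRT19 is the only member for which a designed sequence is given in the sources used here. The study's hybridization panel addressed its transcript through the 100 bases from position 702 to 801, whose likeness to other keratins was not tested:
KRT19: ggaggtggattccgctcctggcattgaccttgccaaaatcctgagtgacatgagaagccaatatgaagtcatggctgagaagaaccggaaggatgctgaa
G and C make up 50.0% of its bases. Hybridization counts were not analysed here.

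Total counts per sample ranged from 1562347 to 6389555 in HGA, from 2581453 to 4218340 in primary AGASAC and from 2857541 to 3289546 in the metastases. Levels are given as CPM, a gene's counts relative to the total of its sample, scaled by trimmed means of M-values (TMM) over the 25 samples. Since each transcript gives 1 tag, they were not divided by gene length. A count of 0 allows up to 3 counts, or 0.543 to 1.84 CPM in the HGA samples and 0.729 to 1.05 CPM in the primary AGASAC samples, for counting error only. HGA 10 stood apart: its Spearman rho with the median of the other HGA was 0.793, the lowest of the 10, and KRT79, a keratin of sebaceous ducts, was at 39.1 CPM there against 977 to 2427 CPM in the other 9. HGA 10 was also the only HGA in its series of file names and the only sample of RNA extraction batch 9. HGA 1 was the deepest sample. Both are therefore also left out below. The labelled tissues were otherwise set apart by their markers. PIP, a secretory protein of apocrine glands, lay between 887 and 5916 CPM in primary AGASAC and at most at 1.23 CPM in HGA, with summed counts of sebaceous and hepatoid gland markers of 3869 to 120557 CPM in HGA and 1834 to 5437 CPM in primary AGASAC. The lowest HGA sum was that of HGA 10, which lay within the AGASAC range.

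All 4 keratins were lower in HGA than in primary AGASAC, and the samples of the tumors did not overlap in any of them. KRT8 and KRT19 were at or near 0 counts in HGA, KRT18 was near 0 in most HGA but not in HGA 1, and KRT7 was present in all HGA.

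**Figure D1:**
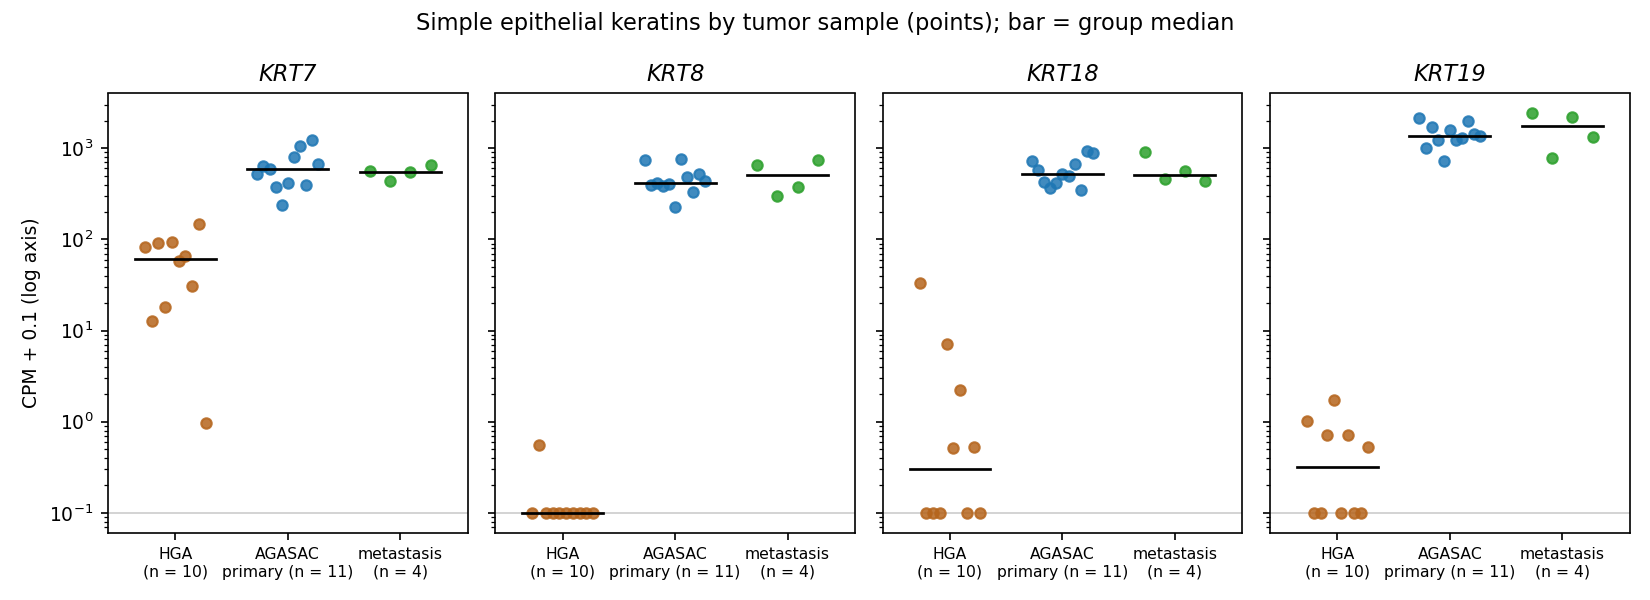
CPM of KRT7, KRT8, KRT18 and KRT19 in each sample, with 0.1 added so that samples at 0 appear on the log axis, for 10 HGA, 11 primary AGASAC and 4 metastases, and a bar at each group's median. All AGASAC points lie above all HGA points in each panel, and the KRT7 points of HGA reach up to 147 CPM while 9 of the 10 KRT8 points of HGA lie at 0.

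KRT8 had a single count over the 10 HGA together, in HGA 2, and 0 counts in the other 9. How reads divided among several places were rounded to whole counts is not given in the sources used here, so a single count need not stand for 1 whole read. In primary AGASAC it ranged from 227 to 758 CPM, with a median of 416. The pooled level was 0.0354 CPM in HGA and 462 CPM in primary AGASAC, a ratio of 13082 with a 95% counting interval from 2348 to 516744. Its log2FC of −12.54 (standard error 0.42, adjusted p = 1.09e-15) was the 6th largest fall among the 12070 genes tested. A fitted value this large depends on the prior count and is not a bound.

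KRT18, the usual partner of KRT8, showed 0 counts in 5 HGA, 1 to 13 counts in 4 and 184 counts in HGA 1. The lowest, median and highest levels were 0, 0.204 and 33.3 CPM in HGA, and 353, 519 and 927 CPM in primary AGASAC. In HGA 1, KRT18 was thus at 33.3 CPM while KRT8 was at 0 counts among 6389555, and the type II member measured there was KRT7 with 82.7 CPM. Other type II keratins were higher in that sample, with KRT79 at 1686 CPM and KRT5 at 907 CPM. PIP and SPDEF were at 0 CPM in the same sample. The log2FC of KRT18 was −6.88 (standard error 0.85, adjusted p = 5.16e-06). HGA 1 decided this value: without it the log2FC was −9.01, and the pooled ratio of primary AGASAC to HGA moved from 79.8 (95% counting interval 69.6 to 92.0) to 578 (385 to 912).

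KRT19 was detected in 5 HGA, with at most 5 counts in any of them and 12 counts in all. It reached at most 1.62 CPM in HGA, with a median of 0.215. In primary AGASAC it was the most abundant of the keratins, from 719 to 2175 CPM with a median of 1375, and its mean ranked 55th among all genes. The pooled ratio was 3400 with a 95% counting interval from 1947 to 6581. The log2FC was −11.59 (standard error 0.49, adjusted p = 1.07e-13).

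KRT7 was the one simple keratin found in all 10 HGA, from 2 counts in HGA 10 to 457 counts in HGA 1. Its lowest, median and highest levels were 0.860, 61.5 and 147 CPM in HGA, and 239, 591 and 1232 CPM in primary AGASAC. The highest HGA, HGA 9, lay below the lowest AGASAC, primary tumor 5. KRT7 was 10.3-fold lower in HGA by the fitted log2FC of −3.36 (standard error 0.51, adjusted p = 8.20e-05). Without HGA 10 the HGA started at 12.7 CPM and the log2FC was −3.21.

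These adjusted p-values come from edgeR (quasi-likelihood, Benjamini-Yekutieli over all genes tested). A gene was called if its adjusted p did not exceed 0.05 and its log2FC, given as HGA minus AGASAC, was 1 or more in size. All 4 members passed the filter on low counts, KRT8, KRT18 and KRT19 through their AGASAC counts, and 4 of 4 were called as lower, where 12.5% of the tested genes were. Their CPM did not overlap between the groups in 4 of 4, where 4.76% of the tested genes were lower in HGA without overlap. A call as higher was not open to KRT8, KRT18 and KRT19 after this filter, so nothing is read from their number. Since these are bulk samples, fewer cells with a keratin and less of its RNA per cell cannot be told apart. Within single extraction batches of 5 or 6 tumors, all 4 were lower in HGA, but KRT7 missed the threshold in batches 5, 6 and 8 (adjusted p = 0.358, 0.297 and 0.139 by the same edgeR test) and KRT18 in batch 6 (adjusted p = 0.203). DESeq2 gave KRT18 a log2FC of −4.47 (adjusted p = 0.00824), and every other setting tried left all tested members called.

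**Figure D2:**
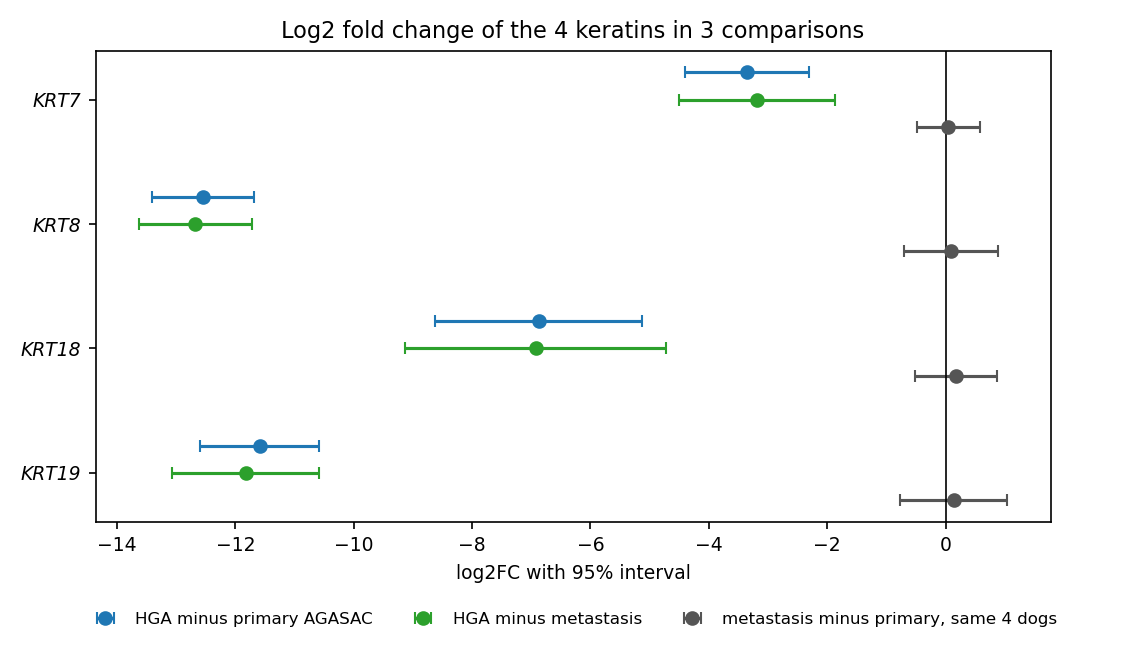
Log2FC of the 4 keratins with 95% intervals from the edgeR fits for HGA minus primary AGASAC, HGA minus metastasis and metastasis minus primary AGASAC of the same dogs. The intervals against HGA lie below −1.86 for each keratin and those between metastasis and primary tumor include 0.

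Against the 4 metastases, HGA showed the same picture with their samples shared with the first comparison. The metastases had 557, 439, 553 and 656 CPM of KRT7 in dogs 1 to 4. KRT8 was at 650, 299, 376 and 735 CPM, KRT18 at 913, 462, 556 and 443 CPM, and KRT19 at 2410, 792, 2203 and 1338 CPM. All of these values lay above those of every HGA. The log2FC of HGA minus metastasis was −3.18 for KRT7 (standard error 0.62, adjusted p = 0.00957), −12.67 for KRT8 (0.45, adjusted p = 2.87e-10), −6.92 for KRT18 (1.04, adjusted p = 0.00102) and −11.82 for KRT19 (0.59, adjusted p = 9.42e-09), all from the same edgeR test. Of the members, 4 of 4 were called as lower where 7.69% of 13195 tested genes were, and 4 of 4 did not overlap where 8.72% were lower in HGA without overlap. Here too KRT8, KRT18 and KRT19 passed the filter through the metastases. A call as higher was not open to them, and nothing is read from their number. For KRT18 the call was lost in DESeq2 (log2FC −5.80, adjusted p = 0.153), and without HGA 1 it had a log2FC of −9.04 in edgeR.

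In AGASAC the simple keratins accounted for nearly the whole keratin pool, while in HGA they were a trace. Their share of all keratin counts had a lowest, median and highest value of 93.1%, 96.5% and 97.3% in primary AGASAC, and it was 95.9%, 96.7%, 97.8% and 95.5% in metastases 1 to 4. In HGA it was 0.0283%, 1.02% and 1.79%. The lowest, of HGA 10, rested on 3 of 10613 keratin counts (exact 95% binomial interval 0.00583% to 0.0826%). HGA was not low in keratin as such: all 49 keratin genes summed to 4564 to 15501 CPM in HGA and to 1913 to 4345 CPM in primary AGASAC. In HGA, KRT14 held 46.8% to 74.2% of the keratin counts, KRT5 6.41% to 30.0% and KRT79 0.857% to 33.01%, with KRT79 lowest in HGA 10.

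**Figure D3:**
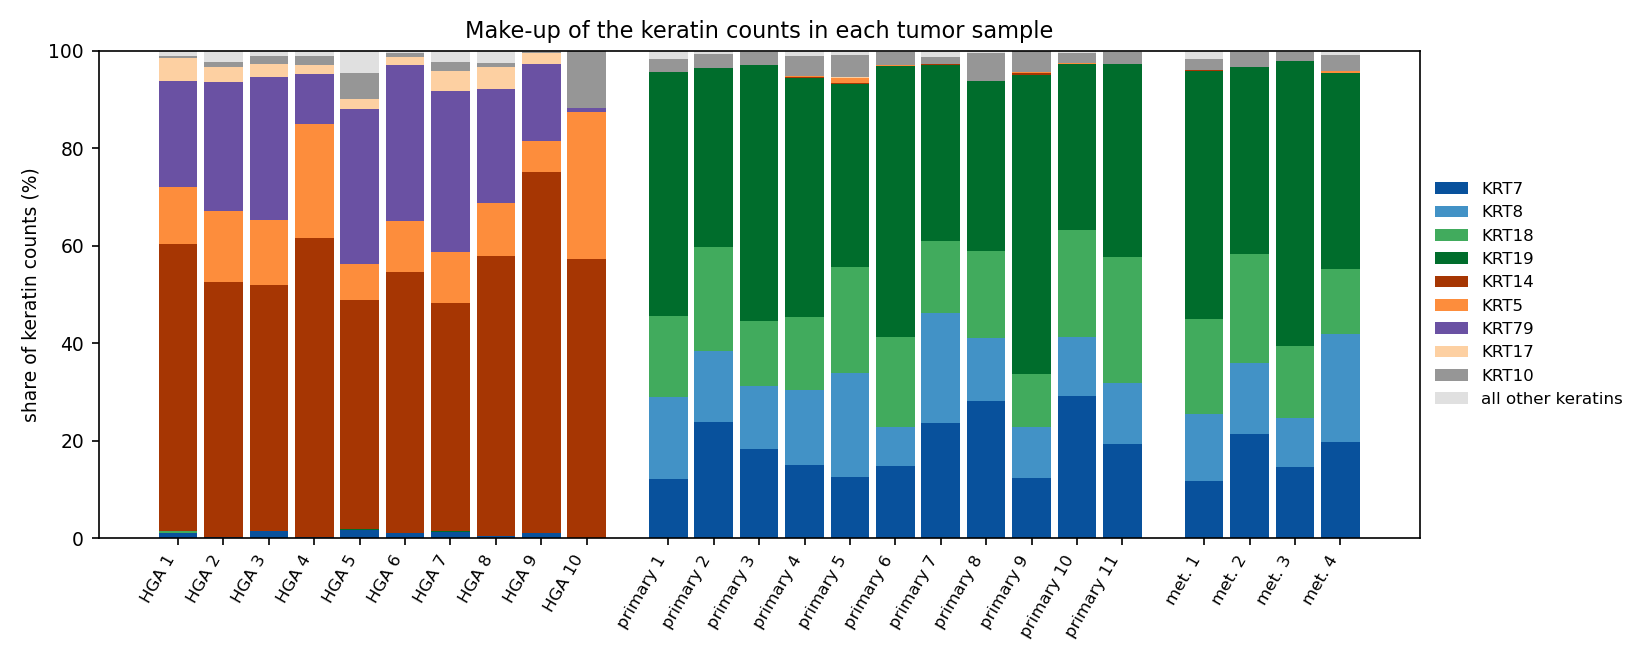
Share of the keratin counts (%) held by each of the 4 simple keratins, by KRT14, KRT5, KRT79, KRT17 and KRT10, and by all other keratins, in each of the 25 samples. The 15 AGASAC bars are filled to at least 93.1% by the 4 simple keratins, and the 10 HGA bars mainly by KRT14, KRT5 and KRT79 with at most 1.79% from the simple keratins.

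Both keratin types showed this split. KRT18 and KRT19 made up 89.6% to 96.4% of type I keratin counts in primary AGASAC and at most 0.683% in HGA, a value reached in HGA 1. KRT7 and KRT8 made up 96.4% to 99.97% of type II keratin counts in primary AGASAC and 0.0610% to 4.11% in HGA. Of the 45 other keratin genes only 5 passed the filter on low counts between HGA and primary AGASAC. Of these, 4 were called as higher in HGA, where 12.6% of the tested genes were, and 0 as lower. These 4 passed the filter through their HGA counts, so a call in the other direction was not open to them and nothing is read from the count. KRT79 (log2FC 15.27), KRT14 (11.23), KRT5 (7.92) and KRT17 (7.76) rose. KRT10, a type I keratin of upper epidermal layers, had a log2FC of 0.55 (adjusted p = 1.0 in edgeR) and was found in all samples, from 20.4 to 531 CPM in HGA and from 48.2 to 217 CPM in primary AGASAC.

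Within AGASAC the order of the levels was the same at its top and varied below. KRT19 was the highest of the 4 in all 11 primary tumors and all 4 metastases. Its log2 ratio to KRT7 within a primary tumor was 1.27 ± 0.73 (SD, n = 11), with the smallest gap, of 0.23, in primary tumor 10. KRT7, KRT18 and KRT8 did not differ beyond their spread: KRT7 lay above KRT18 in 7 of 11 primary tumors (log2 ratio 0.05 ± 0.49, SD), and KRT18 above KRT8 in 8 of 11 (0.32 ± 0.54, SD). In HGA the order was another one, with KRT7 highest in all 10. In HGA 10 this rests on 2 counts of KRT7 against 1 of KRT19, so no order can be read there.

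The type I members outweighed the type II members in all 15 AGASAC samples. The ratio of KRT7 plus KRT8 to KRT18 plus KRT19 counts was 0.309 at its lowest, in primary tumor 6, 0.487 at its median and 0.906 at its highest, in primary tumor 7. It was 0.363, 0.589, 0.337 and 0.781 in metastases 1 to 4. In the 7 HGA with a count of either type I member, the ratio ran the other way, from 2.00 to 347, and it rests on 2 to 457 counts of KRT7 over 1 to 189 counts of KRT18 and KRT19. Over all keratin genes, the type II to type I ratio overlapped between the tumors, at 0.300 to 0.863 in HGA and 0.299 to 0.890 in primary AGASAC. The ratio of KRT8 to KRT18 counts alone was 0.854 ± 0.315 (SD, n = 11) in primary AGASAC and ranged from 0.439 to 1.53.

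**Figure D4:**
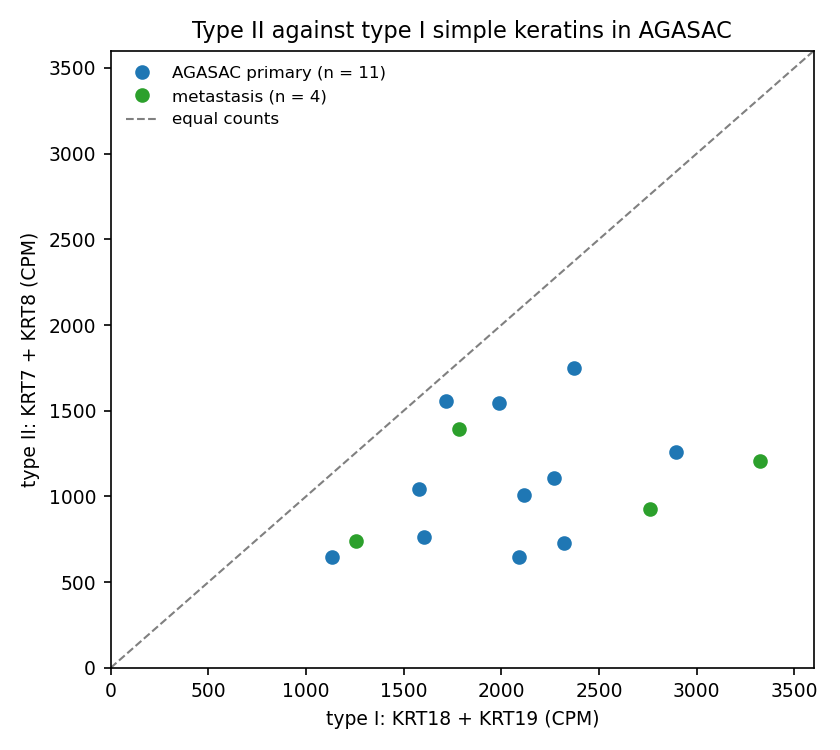
Summed CPM of the type II members KRT7 and KRT8 against that of the type I members KRT18 and KRT19 in 11 primary AGASAC and 4 metastases, with a dashed line at equal levels. All 15 points lie below the line, and primary tumor 7, with a ratio of 0.906, comes closest to it.

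Among primary AGASAC, KRT7 varied more than most other abundant genes, and the other 3 members lay nearer to the middle of them. The coefficient of variation over the 11 tumors was 47.5% for KRT7, 34.7% for KRT18, 34.4% for KRT8 and 29.1% for KRT19. The median over the 1830 tested genes with a mean of at least 100 CPM was 29.5%, and 77.8% of those genes varied less than KRT7, 60.5% less than KRT18, 59.6% less than KRT8 and 48.7% less than KRT19. KRT7 was lowest in primary tumor 5 with 239 CPM and highest in primary tumors 8 and 10 with 1056 and 1232 CPM.

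No close relation between the keratins of a pair was detectable from tumor to tumor, though 11 tumors are too few to exclude one. In the 11 primary AGASAC, Pearson's r between log2(CPM + 1) of KRT8 and of KRT18 was 0.38 (permutation p = 0.252), and Spearman's rho was 0.57 (p = 0.0707 by permutation). Without the 2 tumors farthest from the median KRT8 level, r was 0.66. The strongest relation was between KRT7 and KRT18, with r = 0.70 (permutation p = 0.0169, Benjamini-Hochberg adjusted 0.135) and rho = 0.75 (permutation p = 0.0113, adjusted 0.136). It fell to r = 0.57 without the 2 tumors farthest from the median KRT7 level and was 0.75 in the 7 tumors of one series of sequencing file names. KRT7 and KRT8, both type II, had r = 0.46 and rho = 0.66 (permutation p = 0.0305 for rho, adjusted 0.183). KRT19 showed no clear relation to the others, with r = 0.23 to KRT7, 0.07 to KRT8 and 0.13 to KRT18. None of the 12 relations tested, 6 pairs in each of 2 groups, passed Benjamini-Hochberg adjustment, for r or rho. In HGA the counts of KRT8, KRT18 and KRT19 are too sparse to read a relation from: KRT18 and KRT19 had r = 0.71 (permutation p = 0.0225, adjusted 0.135), which fell to 0.37 without HGA 1 and HGA 5.

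Between lymph node metastases and the primary AGASAC of the same 4 dogs no difference in the simple keratins was detectable. KRT18 and KRT19 were higher in the metastasis in 3 of 4 dogs, KRT7 in 2 and KRT8 in 1. The log2FC of metastasis minus primary tumor was 0.04 for KRT7 (95% interval −0.49 to 0.58), 0.09 for KRT8 (−0.70 to 0.88), 0.17 for KRT18 (−0.52 to 0.87) and 0.14 for KRT19 (−0.76 to 1.04), each with an adjusted p of 1.0 in edgeR. With dog as a block the intervals were −0.47 to 0.58, −0.51 to 0.59, −0.24 to 0.56 and −0.32 to 0.47 in the same order. A change of 2-fold or more in KRT7, KRT8 or KRT18 thus lies outside the intervals, while for KRT19 it does so with the block. Over all genes, 0.0% of 12629 tested genes were called, with 145 at an unadjusted p under 0.05, 1 gene called with dog as a block and 5 in DESeq2.

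**Figure D5:**
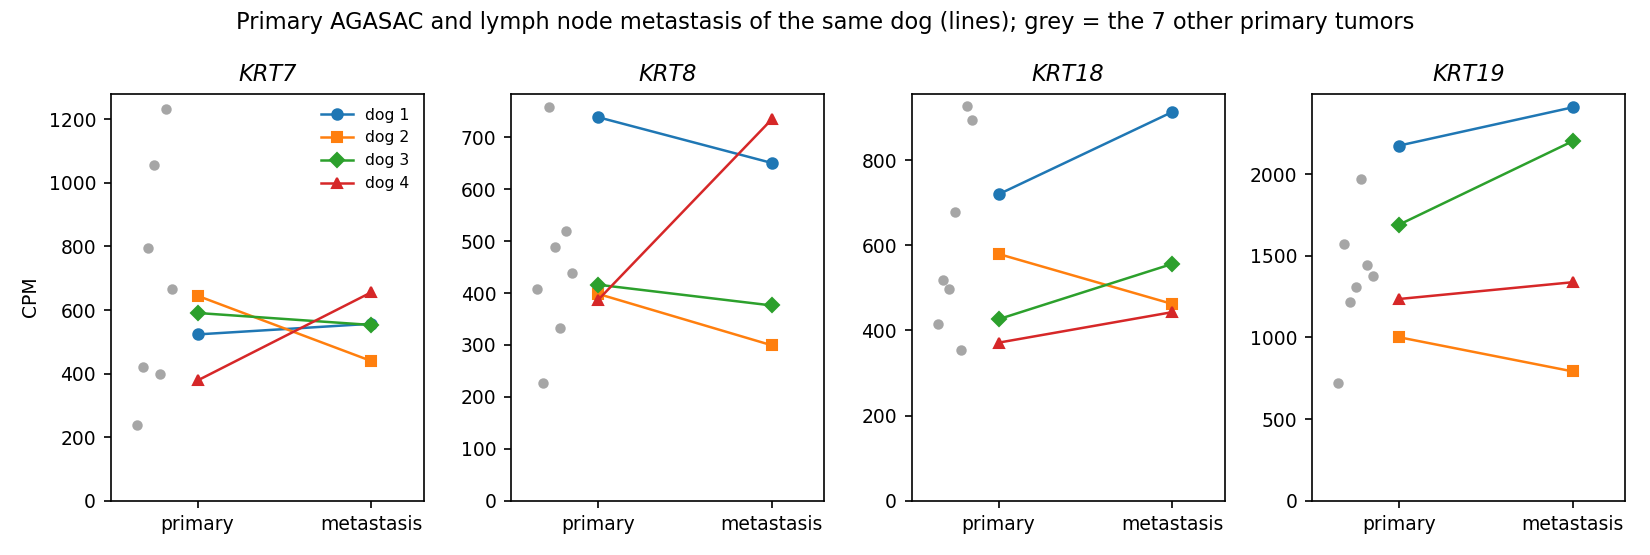
CPM of each keratin in the primary AGASAC and the lymph node metastasis of dogs 1 to 4, joined by lines, with the 7 other primary tumors as grey points. Lines run up in some dogs and down in others, and the steepest is KRT8 in dog 4, from 387 to 735 CPM.

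Single dogs differed in which keratin moved. In dog 2 all 4 were lower in the metastasis, by 0.68-fold to 0.80-fold of the primary tumor. In dog 4 all 4 were higher, KRT8 by 1.90-fold, KRT7 by 1.73-fold, KRT18 by 1.19-fold and KRT19 by 1.08-fold. The RNA of these samples of dog 4 was extracted in different batches, 6 and 5, whose part in the difference was not tested. The ratio of KRT8 to KRT18 counts rose there from 1.04 to 1.66, while it was between 0.648 and 0.713 in the other 3 metastases.

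Between HGA of intact and neutered dogs only KRT7 had enough counts to be tested. It ranged from 17.8 to 147 CPM in the 6 HGA of intact dogs and was at 82.7, 12.7, 30.4 and 0.860 CPM in the 4 of neutered dogs, so the groups overlapped. The log2FC of intact minus neutered was 1.33 (95% interval −0.34 to 3.00, adjusted p = 1.0 in edgeR). With each sample left out it ran from 0.93, without HGA 10, to 2.39, without HGA 1. Of 11906 tested genes 0.0% were called, with 1167 at an unadjusted p under 0.05, 1 called with Benjamini-Hochberg adjustment and 22 in DESeq2. With neuter status as a covariate the log2FC between HGA and primary AGASAC was −3.87 for KRT7 and remained past the threshold for all 4 members.

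Glandular epithelial genes other than keratins were also lower in HGA in their summed level, though not each of them. Of 22 tested, 9 were called as lower in HGA, where 12.5% of the tested genes were, 1 as higher, where 12.6% were, and 12 were not called, with a median log2FC of −1.11 beside −0.03 over all genes tested. Their 23 genes in the table summed to 1365 to 3804 CPM in HGA and 3903 to 6995 CPM in primary AGASAC, with no overlap. CLDN7, a tight junction claudin, had a log2FC of −5.73, EHF, an epithelial transcription factor, −5.69 and PRSS8, a membrane serine protease, −3.01. EHF overlapped between the tumors, at 0 to 8.68 CPM in HGA and 0.699 to 458 CPM in primary AGASAC. CLDN7 and EHF passed the filter on low counts through their AGASAC counts. A call as higher was not open to them, and nothing is read from the number of calls in this list. RAB25, an epithelial vesicle transport GTPase, rose by 1.17. EPCAM, an epithelial cell adhesion gene, fell by 1.46 on the log2 scale (adjusted p = 9.32e-05 in edgeR) and lay between 289 and 629 CPM in HGA against 641 to 2688 CPM in primary AGASAC. CDH1, the epithelial cadherin, had a log2FC of −0.20 (adjusted p = 1.0 in edgeR), with medians of 874 CPM in HGA and 838 CPM in primary AGASAC. Of 5 tested apocrine markers, 4 were called as lower, where 12.5% of the tested genes were, and 1 as higher, where 12.6% were. Among the lower ones were PIP (−13.46), LTF (−6.03) and TFAP2B (−4.71). LTF overlapped between the tumors, at 0 to 15.2 CPM in HGA and 1.01 to 742 CPM in primary AGASAC. PIP passed the filter on low counts through its AGASAC counts, and LTF, with an HGA median of 0.588 CPM, mainly so. A call as higher was not open to PIP and LTF, and nothing is read from the number of calls among these markers.

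Of the genes of proteins that link or bind keratin filaments, more were called as higher than as lower in HGA. Of 21 tested, 8 were called as higher, where 12.6% of the tested genes were, 1 as lower, where 12.5% were, and 12 were not called, with a median log2FC of 0.84 beside −0.03 over all genes tested. Their summed levels overlapped, at 1858 to 4960 CPM in HGA and 2617 to 4559 CPM in primary AGASAC. SFN, which encodes stratifin, a keratin-binding adaptor protein, rose by 3.18, ITGB4, the integrin subunit of hemidesmosomes, by 3.04 and PKP2, a desmosomal plaque protein, by 2.99. DNAJB6, a co-chaperone that binds KRT18, fell by 1.34 on the log2 scale. Of 4 tested genes of other intermediate filaments 0 were called in either direction. VIM, the filament gene of mesenchymal cells, missed the threshold (log2FC 0.90, adjusted p = 0.0535 in edgeR), at a median of 474 CPM in HGA and 260 CPM in primary AGASAC.

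Markers of other cell types differed between the tumors too. Over all tested genes, 12.6% were called as higher in HGA and 12.5% as lower. Markers near 0 in 1 tumor type, such as KRT14, DSG3, KRT5, KRT79, AWAT2, ACTA1 and TTN, passed the filter on low counts through the other. A call in the opposite direction was not open to them, so nothing is read from their number. Of 5 tested squamous epithelium markers 4 were higher in HGA and 0 lower, with KRT14, DSG3 (8.81) and KRT5 leading, and their 7 genes summed to 3223 to 12875 CPM in HGA against 64.0 to 219 CPM in primary AGASAC. Of 8 tested sebaceous and hepatoid gland markers 6 were higher and 0 lower, led by KRT79, AWAT2 (8.19) and SCD (5.27). Of 3 tested skeletal muscle markers 3 were lower in HGA, ACTA1 (−6.38), TTN (−6.28) and MYLPF (−4.66), and the 8 summed to 3.39 to 27.1 CPM in HGA, 9.48 to 1118 CPM in primary AGASAC and 3.86 to 7.79 CPM in the metastases. Of 4 endothelium markers 1 was higher in HGA, CDH5 (1.47), and of the lymph node stroma markers the 1 tested, CCL21, was higher (4.28). None of 6 fibroblast, 5 macrophage, 4 myoepithelium and smooth muscle and 2 lymphocyte markers tested was called. The 8 lymphocyte markers summed to 43.4 to 59.5 CPM in the metastases and 19.4 to 102 CPM in primary AGASAC. The part of these other cells in the keratin differences was not tested.

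The genes most like a member over the 25 samples were those that split the tumors in the same way. KRT8 came nearest to ATP2B2, a calcium pump gene (Pearson r of log2(CPM + 1) = 0.993), TMEM125 (0.993) and SPDEF, a transcription factor of secretory epithelium (0.991). KRT19 came nearest to SPDEF (0.992), GCGR, the glucagon receptor gene (0.989), and PIP (0.989), and KRT18 to SPDEF (0.964), VAMP5 (0.960) and ATP2B2 (0.960). KRT7, with its counts in HGA, had other neighbors: PPM1K, a mitochondrial phosphatase gene (0.944), TMEM150A (0.937) and CHD3, a chromatin remodeler gene (0.927). No HGA held more than 1 count of SPDEF, against 56.4 to 286 CPM in primary AGASAC. PPM1K lay at 0.452 to 38.6 CPM in HGA and 80.2 to 421 CPM in primary AGASAC. These r values describe the separation of the tumors, which all these genes share.

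Within the 15 AGASAC samples the nearest genes were different ones, and the r values were lower. They were LDHD (0.83), SUOX (0.81) and PTPRF (0.80) for KRT7, DDOST (0.87) and SMIM1 (0.86) for KRT8, SURF2 (0.90), RPL3 (0.88) and NOP10 (0.88) for KRT18, and GPATCH11 (0.88), CERS3 (0.87) and ZNF638 (0.82) for KRT19. No member was among the nearest genes of another, and between members r ran from 0.22, for KRT7 and KRT19, to 0.61, for KRT7 and KRT18. The 15 samples include both samples of 4 dogs, so they are not independent.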

How the data were processed

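Total RNA from the FFPE tumors was made into strand-specific QuantSeq 3′ libraries. The authors trimmed reads with Cutadapt, aligned them to CanFam3.1 with STAR and counted them per gene with featureCounts, in a second round with genes extended by 2 kilobases at the 3′ end. Reads that mapped to several places were divided evenly among them, so counts of related keratins carry that uncertainty. The deposited counts are whole numbers, and the rounding of divided reads is not given in the sources used here. The deposited table holds raw counts per gene, which were used here. Its 25 normalized columns and the authors' own comparison (fold changes and p-values) were not used. 0 columns of samples were left unmapped.

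Raw counts were tested with edgeR 4.0.16 (R 4.3.3; TMM, filterByExpr with a minimum count of 10 and a total of 15, quasi-likelihood test). P-values were adjusted by Benjamini-Yekutieli over all genes tested, and DESeq2 1.42.0 was an alternative. Intervals are at 95%. Scripts were tested on simulated data. Groups came from the sample titles. In HGA versus primary AGASAC, the 21 primary tumors entered. Metastases and primary tumors of the same dog deviated together (correlation of deviations from the group means 0.43 to 0.73, each highest with its own dog), so their numbers pair them. Shares and ratios come from raw counts, correlations from log2(CPM + 1) with 100000 permutations. Pooled ratios have exact binomial intervals on summed counts, which cover counting error only. The members and gene lists were chosen with earlier results of these data known. Genes were named by rule: the members, the 3 genes most correlated with each over all samples and over AGASAC, and the 3 called genes with the largest rise and fall in each list; exceptions are KRT17, KRT10, CDH1, EPCAM, VIM and those named in the closing section, chosen after their values were seen. A gene that the rule selects for KRT8 and 1 apocrine marker are not reported here by name. Gene names and neighbors came from RefSeq's UU_Cfam_GSD_1.0 annotation, another assembly than that of the counts, so no coordinates are given. For a keratin named by a LOC number, 2 rows were found, neither a copy of a member.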

Additional observations from a re-analysis of the deposited data

Results flagged for a closer look

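In 14 sets of values from the 10 HGA or the 4 metastases, the highest or lowest sample was compared with the rest by Dixon's test, and 4 stood apart. Chance gives about 1 in 20 for normally distributed values. This rate does not hold for KRT8, at 0 in 9 HGA, or for KRT18, at 0 in 5, so no excess is read from the 4. KRT18 was at 33.3 CPM in HGA 1, with 7.01 CPM in the next highest HGA. KRT8 was at 0.452 CPM in HGA 2 and at 0 in the other HGA, which rests on 1 count. The summed level of all 49 keratin genes was 15501 CPM in HGA 9, with 9642 CPM in the next highest HGA. The ratio of KRT8 to KRT18 counts was 1.66 in metastasis 4, with 0.713 in the next highest metastasis.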

How the results depend on the processing

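For HGA versus primary AGASAC, the 4 members kept their direction under every alternative in which they were tested. Asking for 10 counts or more in all samples removed all 4 there and against the metastases, and KRT7 between HGA of intact and neutered dogs, so it gave no value for them; it left 1452 genes called between the primary tumors in place of 3032, and 1153 in place of 2124 against the metastases. Within extraction batch 5 (3 HGA, 3 AGASAC), 262 genes were called and KRT7 had a log2FC of −3.17 (adjusted p = 0.358 in edgeR). Within batch 6 (3 and 2), 637 were called, with −2.64 (0.297) for KRT7 and −4.95 (0.203) for KRT18. Within batch 8 (2 and 3), 338 were called, with −2.90 (0.139) for KRT7. Fewer tumors enter these fits. With library size alone, 1053 of 3209 called genes were higher in HGA (32.8%, 50.2% with TMM), and the median log2FC of all genes moved from −0.03 to −0.33; the members had −3.67, −12.76, −7.18 and −11.88. Leaving out each tumor gave −3.63 to −3.21 for KRT7, −13.48 to −12.35 for KRT8, −9.01 to −6.73 for KRT18 and −11.91 to −11.36 for KRT19. Leaving out both HGA 1 and HGA 10, chosen after seeing the data, gave −3.25, −12.28, −8.85 and −11.97. With the replicate number as a block, 2622 genes were called, with −3.62 (adjusted p = 0.00666 in edgeR) for KRT7 and −8.69 for KRT18; HGA and AGASAC share only a number (correlations of deviations −0.05 to 0.04). Against the metastases, 3536 genes were called with Benjamini-Hochberg adjustment and 3187 in DESeq2, where KRT18 had −5.80 (adjusted p = 0.153). The cause was not tested. Between metastases and primary tumors, where 0 genes were called, DESeq2 called 5 and the dog block 1, which changed no call of a member. The log2FC of KRT7 was −0.20 against all 11 primary tumors, and leaving out each sample gave −0.0824 to 0.15 for KRT7, −0.15 to 0.36 for KRT8, −0.10 to 0.36 for KRT18 and −0.0744 to 0.37 for KRT19. Between HGA of intact and neutered dogs, 1 gene was called with Benjamini-Hochberg adjustment, 1 without a filter, 22 in DESeq2, and 0 to 1 with each sample left out. With library size alone, r in primary AGASAC was −0.0306 for KRT8 and KRT19 and −0.0416 for KRT18 and KRT19. The 3 shares of keratin counts moved by less than 1 SD. Low counts in HGA limit the folds of KRT8 and KRT19.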

Other observations

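Besides the members, 2 other keratins of single-layered epithelium each stood out in 1 dog with AGASAC, chosen here after their values were seen. KRT23, a type I keratin, was at 63.3 CPM in primary tumor 1 and at 77.9 CPM in the metastasis of the same dog. It was at 0.243 to 12.7 CPM in the other 10 primary tumors. Its levels in primary tumors 7, 9 and 11, of 0.699, 0.287 and 0.243 CPM, lay below what 3 counts would give there. KRT20, a type I keratin of intestinal epithelium, was at 13.1 CPM in primary tumor 4 and at 20.4 CPM in the metastasis of that dog. It was at most 4.36 CPM in the other 10 primary tumors and 0 CPM in the other 3 metastases. In both dogs the keratin that stood out in the primary tumor also did so in the metastasis, which is a description of 1 dog for each gene with no test.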
